A study of Mus musculus with 6 samples.

Results

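The genes described here build the cytosolic RNA and DNA sensing pathway of the mouse: the RNA receptors Ddx58, Ifih1 and Dhx58 with their adaptor Mavs, the DNA sensor Cgas with its adaptor Sting1, the nucleic acid sensor Zbp1, the kinases Tbk1 and Ikbke, and the DNA exonuclease Trex1. The 10 genes were chosen by name, and every probe set that the platform annotation gives to one of them was taken, which made 19 of the 45037 probe sets tested. Of these, 18 belong to 9 genes with a probe set of their own; the 1 probe set for Trex1 is annotated to Atrip as well, so its value cannot be assigned to either gene. Igf2bp1, another gene for which Zbp1 is an alias, was left out.

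The study hybridised 6 Affymetrix 3' expression arrays, 3 with RNA from macrophages of E-FABP knockout mice and 3 with RNA from macrophages of wild-type mice. Fabp5 encodes E-FABP, a cytosolic carrier of fatty acids. Both genotypes are labelled C57BL/6, and the bone marrow donors were 6 to 8 weeks old. In both, marrow cells were cultured with the growth factor GM-CSF (20 ng/ml) for 7 days, conditions that yield some dendritic-like cells beside macrophages, and all 6 cultures then spent 18 h with E0771 mouse breast tumour cells behind an insert. The comparison therefore asks how the sensing genes differ between tumour-exposed macrophages without and with E-FABP, and cultures without tumour cells were not analysed here. The sources used here do not say which part of Fabp5 was deleted or whether each biological replicate was a separate animal. The p-values thus measure only the spread between these samples.

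Cells watch their cytosol for nucleic acid that should not be there. RIG-I (Ddx58) and MDA5 (Ifih1) bind viral-type RNA and pass the signal to Mavs on mitochondria; cGAS binds DNA and makes a cyclic dinucleotide that activates STING (Sting1) at the endoplasmic reticulum. Both arms meet at the kinases TBK1 and IKK-epsilon (Ikbke), which act on interferon regulatory factors that switch on interferon beta, and many sensors are themselves interferon-induced genes.

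The genotype check and the cell markers concern all arrays. Fabp5 read 8.27 ± 0.13 log2 intensity in knockout and 14.44 ± 0.03 in wild type (mean ± SD, n = 3 each) on its brighter probe set. The dimmer one read 6.01 ± 0.35 in knockout and 13.90 ± 0.06 in wild type (SD, n = 3 each). Both knockout means lay above the median of all values (5.63), and the source of this remaining signal was not tested. All 8 macrophage markers lay above the median of all values (5.63), and Csf1r, the receptor that macrophages need for growth, read 13.87 ± 0.02 in knockout and 13.89 ± 0.02 in wild type (SD, n = 3 each). Of these 8 markers Mertk and Fcgr1 fell and 6 did not pass, and their mean log2 level was 12.10 to 12.29 over the knockout arrays and 12.39 to 12.47 over the wild-type arrays. Dendritic cell markers averaged 7.98 to 8.39 in knockout and 7.55 to 7.84 in wild type (1 of 8 rose), and plasmacytoid dendritic cell markers 7.37 to 7.58 and 7.75 to 7.82 in the same order (2 of 6 fell). Neutrophil markers averaged 8.80 to 9.37 in knockout and 9.48 to 9.76 in wild type (0 of 9 passed, 8 of 9 with a lower mean in knockout). Fibroblast markers averaged 4.89 to 5.06 in knockout and 5.59 to 5.67 in wild type (3 of 6 fell), and T cell markers 4.88 to 4.94 and 5.02 to 5.12 (0 of 3 passed). The lists for epithelial, B, NK and erythroid cells, of which 0 markers passed, overlapped between genotypes. The 6 lists from macrophage to T cell thus separated the genotypes by their mean levels, as the sensors below did. Within the macrophage list Fcgr1 and Mertk changed by -1.13 and -0.46, and the 6 others by -0.11 to 0.04. In the plasmacytoid list Bst2 and Tcf4 changed by -0.90 and -0.57. Its other markers changed by -0.08 to -0.04, and each overlapped between genotypes. Median changes were -0.06 for macrophage, 0.46 for dendritic cell, -0.07 for plasmacytoid, -0.53 for neutrophil, -0.41 for fibroblast and -0.16 for T cell markers. Below the median of all values lay 3 of 6 fibroblast and 2 of 3 T cell markers. Of all genes taken singly, 11.2% lay wholly lower in knockout and 20.7% wholly higher. The part of these lists in the results was not tested. RNA came from whole cultures, so fewer cells of a type and less RNA per cell cannot be told apart.

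Of the 9 genes with a probe set of their own, each counted by its brightest probe set, 5 fell in knockout cultures, 0 rose and 4 did not pass (limma, adjusted p under 0.05). Among all 18193 genes, 2.05% were called lower and 2.85% higher. The 5 that fell were all sensors: Ifih1, Ddx58, Zbp1, Dhx58 and Cgas, whose levels were 2.29-fold, 2.09-fold, 2.00-fold, 1.87-fold and 1.48-fold lower in knockout. The 4 that did not pass were both adaptors, Mavs and Sting1, and both kinases, Tbk1 and Ikbke. In 7 of the 9 genes every knockout value was lower than every wild-type value, against 11.2% of all genes, and in the other 2, Mavs and Sting1, every knockout value was higher, against 20.7% of all genes. The median change of the 9 genes was -0.57 on the log2 scale, and that of all genes 0.01. Omitting knockout replicate 1 left 0 of the 5 calls, as did omitting array 1 or array 2 of the wild type. Omitting knockout replicate 2 left 3 calls, as did omitting array 3 of the wild type, while the direction of each of the 9 genes was kept in these fits. Calls dropped over the whole series too. With all arrays 764 of 45037 probe sets were called lower. Without knockout replicate 1 this number was 16, and without knockout replicate 2 it was 200. Without wild-type array 1, 2 or 3 it was 196, 62 and 464.

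**Figure D1:**
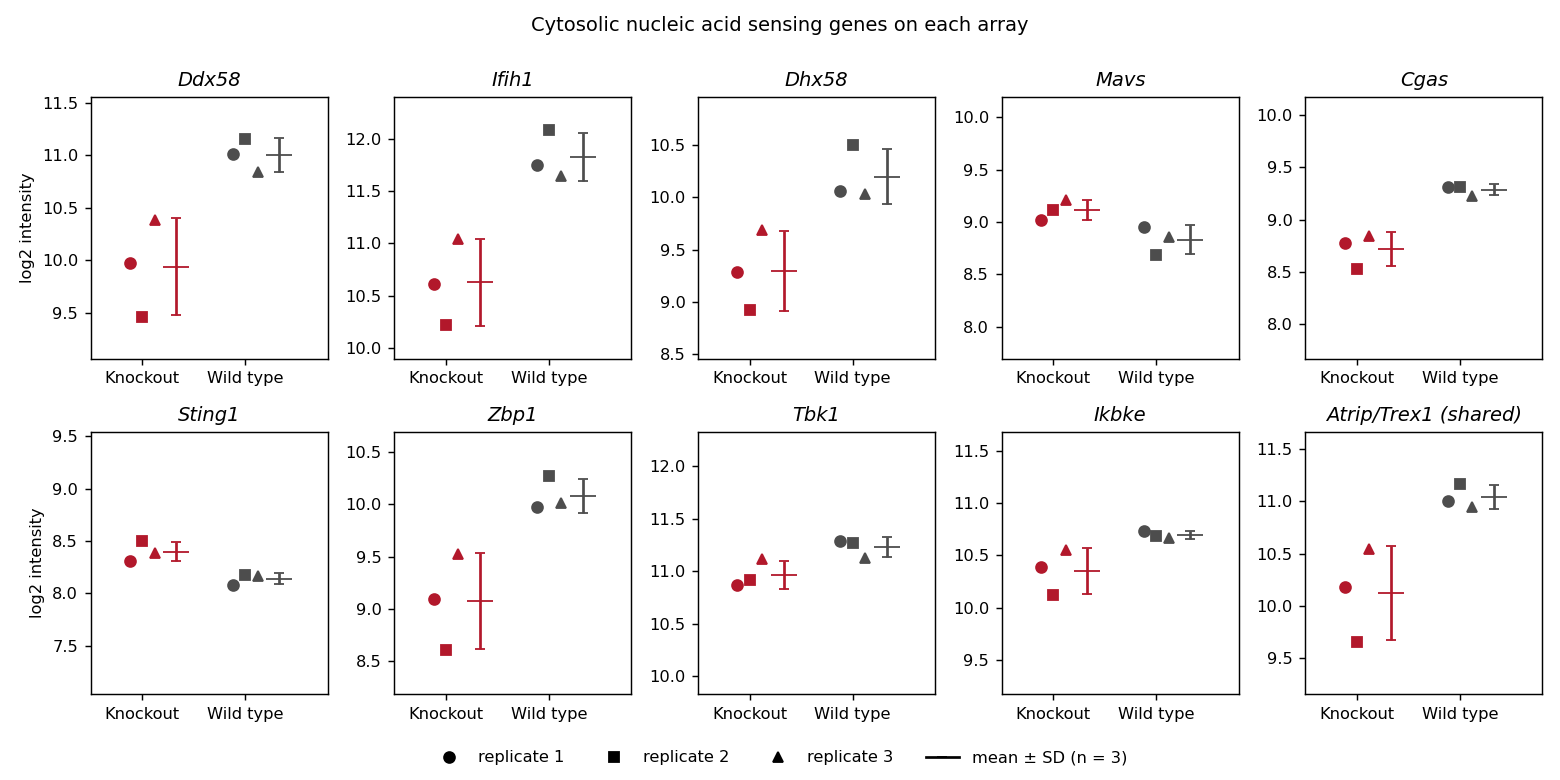
Each panel plots the log2 intensity of 1 gene's brightest probe set on the 3 knockout and the 3 wild-type arrays, with a bar for the mean ± SD (n = 3); all panels span the same number of log2 units. The knockout points lie below all wild-type points in 8 panels and above them for Mavs and Sting1, and knockout replicate 2 is the lowest point for Ddx58, Ifih1, Dhx58, Zbp1, Cgas, Ikbke and Atrip/Trex1.

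Ddx58 encodes RIG-I, the helicase that recognises RNA with a 5' triphosphate. Its brightest probe set, 1436562_at, read 9.97, 9.46 and 10.38 log2 intensity on knockout arrays 1, 2 and 3, against 11.02, 11.16 and 10.84 on wild-type arrays 1, 2 and 3. The genotypes did not overlap, and the spread was wider among knockout arrays, of which replicate 3 came closest to wild type. The change was -1.07 (SE 0.20, n = 3 per genotype, limma adjusted p = 0.0269). The other 2 probe sets of Ddx58 were lower in knockout by -1.02 and -0.59 without passing (limma adjusted p = 0.0539 and 0.0750), although neither overlapped between genotypes. The third of them averaged 5.04 in knockout and 5.62 in wild type, below the median of all values.

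Ifih1 encodes MDA5, the helicase that binds long double-stranded RNA, and it showed the largest change among the 9 genes. Probe set 1426276_at, its sole one, read 10.61, 10.22 and 11.05 log2 intensity on the knockout arrays and 11.75, 12.08 and 11.65 on the wild-type arrays. The highest knockout value lay 0.60 below the lowest wild-type value. The change was -1.20 (SE 0.19, 95% confidence interval -1.63 to -0.77, limma adjusted p = 0.0207).

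Dhx58 encodes LGP2, a relative of the other RNA helicases that lacks the signalling domains through which they contact Mavs. Its brightest probe set, 1451426_at, read 9.28, 8.92 and 9.68 in knockout and 10.06, 10.50 and 10.03 in wild type (log2 intensity), with no overlap. The change was -0.90 (SE 0.19, limma adjusted p = 0.0361). The probe sets of Dhx58 disagreed, however. The second, 1420769_at, averaged 6.55 ± 0.06 in knockout and 6.58 ± 0.04 in wild type (SD, n = 3 each), a change of -0.03 with a confidence interval of -0.18 to 0.13. The third overlapped between genotypes (-0.43, limma adjusted p = 0.207), and the mean of the 3 probe sets gave a change of -0.45 that did not pass (limma adjusted p = 0.0736).

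Since Ddx58 and Ifih1 moved together and their products share an adaptor, their promoters were searched for the core of the interferon-stimulated response element, GAAANNGAAA or TTTCNNTTTC on the other strand. Promoter sequences, 250 bases before to 50 after the annotated start, came from RefSeq (GRCm38.p6), whose table held 7 of the 10 genes (Ddx58, Ifih1, Mavs, Cgas, Tbk1, Ikbke and Trex1). The element was found in Ddx58 and Ifih1 and in neither Mavs, Cgas, Tbk1, Ikbke nor Trex1, while 3.44% of the 32851 promoters in the table hold it. Both matches lie just after the annotated start, at base 3 in Ddx58 and base 33 in Ifih1, counted from 1 at the start. The windows are shown with the match in capitals, Ddx58 from chr4:40239804-40239833 and Ifih1 from chr2:62646206-62646233, both on the minus strand:
Ddx58: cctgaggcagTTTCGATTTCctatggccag
Ifih1: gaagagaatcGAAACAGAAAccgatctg
Upstream of its start, Ddx58 also holds the shorter core AANNGAAA (TTTCNNTT on the other strand), which is part of the longer element and occurs in 23.9% of the promoters. That window, chr4:40239851-40239910 on the minus strand, is shown because it is the sole match before the start in Ddx58 or Ifih1, at base -59:
Ddx58: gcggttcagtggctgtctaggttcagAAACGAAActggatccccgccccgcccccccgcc
Ikbke holds the shorter core too, at base -132. The gamma-activated core TTCNNNGAA, present in 8.30% of promoters, was found in 0 of the 7 genes. A match describes these letters only; binding was not measured.

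Mavs, the mitochondrial adaptor of both RNA receptors, was not lower in knockout. Its brighter probe set, 1439185_x_at, read 9.02, 9.11 and 9.21 in knockout and 8.96, 8.68 and 8.85 in wild type (log2 intensity). All 3 knockout values were the higher ones, by a margin of 0.06 between the nearest arrays. The change was 0.28 with a confidence interval of 0.08 to 0.48 (limma adjusted p = 0.113), and the other probe set gave 0.22 (limma adjusted p = 0.114). On these 6 arrays the receptors and their adaptor thus changed unequally: the log2 difference Ddx58 minus Mavs changed by -1.35, and Ifih1 minus Mavs by -1.48. Neither difference overlapped between genotypes, and each reached the smallest two-sided p that an exact permutation test of 3 against 3 arrays allows (p = 0.1, and 0.1 after adjustment over 3 receptor and adaptor pairs). Since the receptors lay wholly below and Mavs wholly above wild type in knockout, this outcome was fixed and adds no support.

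Cgas encodes the DNA sensor cGAS, the enzyme that makes cGAMP, and fell on both of its probe sets. The brighter, 1440299_at, read 8.78, 8.53 and 8.85 in knockout against 9.31, 9.32 and 9.22 in wild type (log2 intensity). The wild-type values lay within a narrow band, and the nearest knockout array stood 0.38 below it. The changes of the brighter and the dimmer probe set were -0.57 (SE 0.09) and -0.60 (SE 0.12), with limma adjusted p of 0.0207 and 0.0361.

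Sting1, the receptor for cGAMP, showed higher values in knockout that did not pass. Probe set 1427911_at read 8.31, 8.50 and 8.39 in knockout and 8.08, 8.18 and 8.16 in wild type (log2 intensity), without overlap. The change was 0.26 with a confidence interval of 0.09 to 0.42 (limma adjusted p = 0.0882; 0.0464 when only probe sets above the median of all values were tested). The other probe set gave 0.26 too and overlapped between genotypes (limma adjusted p = 0.170). The log2 difference Cgas minus Sting1 changed by -0.82 without overlap (exact permutation test, two-sided p = 0.1, the smallest possible). Here too the values of both genes, without overlap in opposite directions, fixed this outcome.

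Zbp1 binds nucleic acid in the left-handed Z form and can start necroptosis and inflammation. Its brighter probe set, 1429947_a_at, read 9.10, 8.61 and 9.53 on the knockout arrays and 9.97, 10.27 and 10.01 on the wild-type arrays (log2 intensity). The knockout arrays covered a span of almost a whole log2 unit, with replicate 3 nearest to wild type. The change was -1.003 (SE 0.20, limma adjusted p = 0.0310), and the other probe set fell by 1.17 (SE 0.26, limma adjusted p = 0.0427).

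The kinases shifted little. Tbk1, on which both sensing arms converge, read 10.86, 10.91 and 11.12 in knockout and 11.29, 11.27 and 11.12 in wild type on its brighter probe set, 1460315_s_at (log2 intensity). The highest knockout and the lowest wild-type array were level to within 0.01. The change was -0.26 with a confidence interval of -0.46 to -0.07 (limma adjusted p = 0.130), and the other probe set overlapped (-0.17, limma adjusted p = 0.251). Ikbke, the inducible relative of Tbk1, read 10.38, 10.12 and 10.55 in knockout and 10.73, 10.68 and 10.66 in wild type on probe set 1417813_at (log2 intensity). Its change was -0.34 with a confidence interval of -0.58 to -0.11 (limma adjusted p = 0.104), and -0.23 with knockout replicate 2 omitted. A shared spread that follows the level and resists outliers (limma's trend and robust settings) called both kinases lower (adjusted p = 0.0458 and 0.0485), kept Cgas and lost Ddx58, Ifih1, Dhx58, Zbp1 and the probe set shared by Atrip and Trex1 (adjusted p of 0.0710 to 0.114).

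Trex1 is an exonuclease that clears cytosolic DNA and so limits cGAS activity. The probe set annotated to Trex1 and Atrip, 1450672_a_at, read 10.18, 9.65 and 10.54 in knockout against 11.00, 11.17 and 10.95 in wild type (log2 intensity), and fell by 0.91 (SE 0.19, limma adjusted p = 0.0351). Atrip, a partner of the checkpoint kinase ATR, has a probe set of its own, which averaged 5.59 ± 0.10 in knockout and 5.61 ± 0.13 in wild type (SD, n = 3 each), close to the median of all values, with a change of -0.01 (confidence interval -0.21 to 0.18). Which transcript gave the signal of the shared probe set was not tested.

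**Figure D2:**
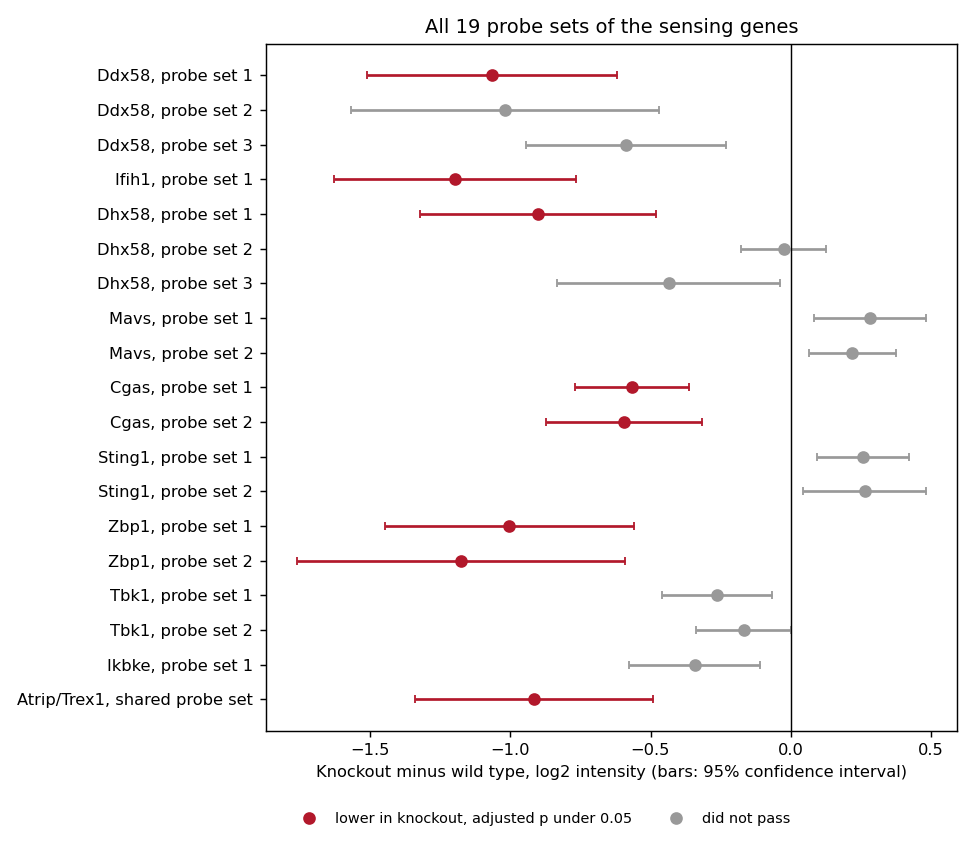
Points give the change of each of the 19 probe sets (knockout minus wild type, log2 intensity) with its 95% confidence interval; probe sets of a gene are numbered from the brightest. The 8 coloured probe sets, those of Ddx58, Ifih1, Dhx58, Cgas, Zbp1 and the shared Atrip/Trex1 set, lie between -1.20 and -0.57 and passed, and the 4 probe sets of Mavs and Sting1 lie between 0.22 and 0.28 and did not.

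Across all 18 probe sets with 1 gene, 7 fell and 0 rose, against 1.70% and 2.06% of all 45037 probe sets. By the brightest probe sets, the knockout arrays ran in the order 2, 1, 3 from low to high for 6 of 9 genes, against 19.2% of all genes. By the same probe sets, knockout replicate 2 was the lowest array for 6 of 9 genes, against 17.0% of all genes, and wild-type replicate 2 the highest for 5 of 9, against 20.2% of all genes. Mavs and Sting1 ran otherwise: Mavs had its lowest value on wild-type replicate 2 and Sting1 its highest on knockout replicate 2. At the other end, Mavs was highest on knockout replicate 3 and Sting1 lowest on wild-type replicate 1, so neither was a mirror image of the sensors.

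**Figure D3:**
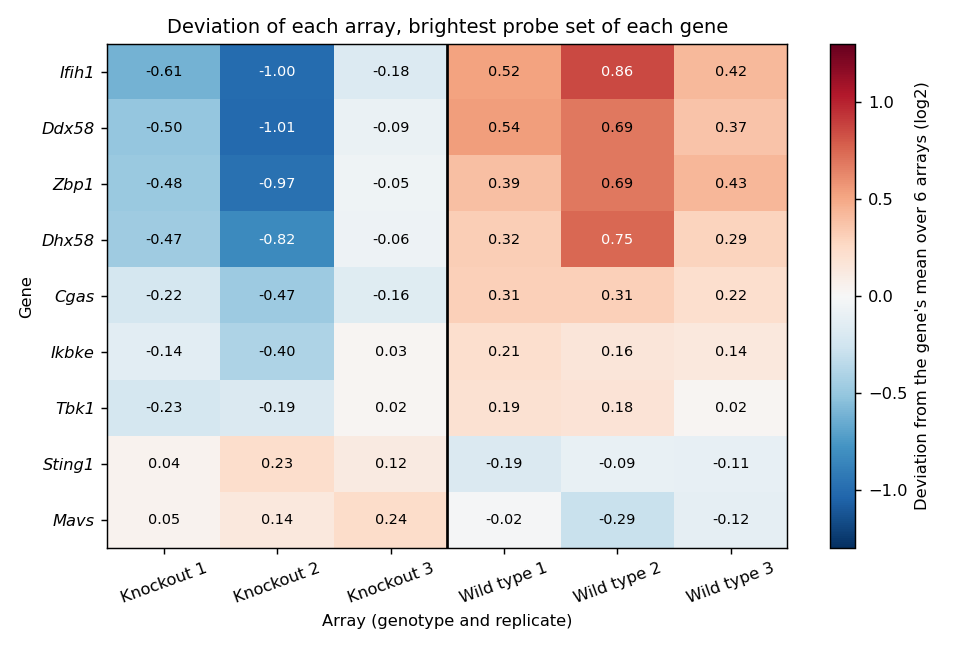
Each cell gives the deviation of 1 array from the gene's mean over the 6 arrays, in log2 units, for the brightest probe set of 9 genes; the line parts knockout from wild type. Ifih1, Ddx58, Zbp1 and Dhx58 share the same gradation, from -1.01 to -0.82 on knockout replicate 2 to 0.69 to 0.86 on wild-type replicate 2. Sting1 and Mavs are higher in knockout but do not mirror this order: Mavs is highest on knockout replicate 3 (0.24) and Sting1 lowest on wild-type replicate 1 (-0.19).

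The genes whose profile over the 6 arrays was nearest to each of 3 sensors were found among 11276 genes above the median of all values. Likeness was the root mean square distance between the arrays' deviations from each gene's own mean. Nearest to Ddx58 were Znfx1, a helicase-family RNA sensor (distance 0.03, in log2 units), Parp12 (0.05) and Fcgr1, a receptor for IgG (0.05). Nearest to Ifih1 were Nlrc5, the regulator of MHC class I genes (0.04), the chromatin protein gene Daxx (0.04) and Oas3 (0.06). Nearest to Zbp1 were Parp12, Mndal and Oas2, each at 0.04. These nearest genes changed by -1.20 to -1.01, a size that their choice by distance from a lower sensor fixes. From Ddx58, Zbp1 lay at a distance of 0.07, Ifih1 at 0.09, Dhx58 at 0.13, Cgas at 0.31, Ikbke at 0.40 and Tbk1 at 0.46, while Mavs and Sting1 lay farthest, at 0.73 each. Distance depends on the size of each gene's change, so this order largely repeats the changes given above. Ranked against the 11276 genes, Cgas, Ikbke and Tbk1 stood at 187, 355 and 584, and Mavs and Sting1 at 9863 and 9872.

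Around these genes, 54 other measured genes of the sensing pathways were followed, grouped by role. Of these, 9 fell, 3 rose and 42 did not pass, against 2.05% of all genes called lower and 2.85% called higher. The median change was 0.01, the same as over all genes. Omitting knockout replicate 1 left 0 falls and 0 rises, and omitting wild-type replicate 2 left 1 fall and 0 rises. Over all 45037 probe sets, these fits called 16 and 62 lower and 24 and 42 higher, against 764 and 927 with all arrays. Omitting knockout replicate 2, or 1 of the other wild-type arrays, left 4 falls.

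Among 12 regulators of the RNA receptors, Ddx60 and Rnf135 fell, 0 rose and 10 did not pass. Ddx60, an interferon-induced helicase, read 8.64, 7.98 and 9.25 in knockout against 9.94, 10.49 and 9.94 in wild type, a change of -1.50 (SE 0.28, limma adjusted p = 0.0273; 0.119 with trend and robust settings). Rnf135, the ubiquitin ligase Riplet that activates RIG-I, fell by 0.54 (SE 0.11, limma adjusted p = 0.0343). In the signalling group after Mavs and Sting1, Irf7, Ifnb1 and Azi2 fell, 0 rose and 7 of 10 did not pass. Irf7, the interferon-induced factor that amplifies interferon transcription, read 8.46 ± 0.65 in knockout and 10.08 ± 0.26 in wild type (SD, n = 3 each) without overlap, a change of -1.62 (SE 0.28, limma adjusted p = 0.0227; 0.0970 with trend and robust settings). Azi2 (NAP1), an adaptor of TBK1, fell by 0.52 (SE 0.10, limma adjusted p = 0.0330), and the mean of its probe sets changed by -0.34. Ifnb1, the interferon beta gene at the end of the pathway, read 5.43, 5.35 and 5.62 in knockout and 6.72, 7.35 and 6.62 in wild type, a change of -1.43 (SE 0.17, limma adjusted p = 0.0136). All its knockout values lay below 5.63, the median of all values.

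Of the 8 genes of Sting1 trafficking and turnover 0 passed in limma. Before adjustment 1 of the 8 was lower at p under 0.05 and 0 were higher, against 8.15% and 15.2% of all genes, so that the lower share was near that of all genes. That gene was Trim56, a ubiquitin ligase reported to act on STING and cGAS (-0.27, limma adjusted p = 0.0853; 0.0473 after quantile normalization and 0.0473 with above-median probe sets only). Among 10 other DNA sensors and cofactors 2 rose, 0 fell and 8 did not pass. Those that rose, Prkdc (0.51, SE 0.07, limma adjusted p = 0.0159) and Xrcc6 (0.49, SE 0.07, limma adjusted p = 0.0177), encode subunits of the DNA-dependent protein kinase, which also serves double-strand break repair. Prkdc read 7.26, 7.33 and 7.31 in knockout and 6.85, 6.70 and 6.81 in wild type, a narrow spread within each genotype. Xrcc6 read 6.03, 5.85 and 5.91 in knockout and 5.43, 5.47 and 5.42 in wild type, so all its wild-type values lay below the median of all values (5.63). The mean of the probe sets of Xrcc6 gave 0.13 and did not pass (limma adjusted p = 0.204).

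Of 4 cell death partners of Zbp1, Mlkl fell and 3 did not pass. Mlkl, the membrane-permeabilising executor of necroptosis, read 10.50, 10.31 and 10.69 in knockout against 11.19, 11.37 and 11.16 in wild type (-0.74, SE 0.10, limma adjusted p = 0.0175). Among 10 genes that remove, edit or bind nucleic acid, Samhd1, Pnpt1 and Eif2ak2 fell, Rnaseh2c rose and 6 did not pass. Samhd1, which degrades deoxynucleotides, changed by -0.76 (SE 0.11), Pnpt1, a mitochondrial RNA-degrading enzyme, by -0.72 (SE 0.13), and Eif2ak2, which codes for the RNA-dependent kinase PKR, by -0.88 (SE 0.17), with limma adjusted p of 0.0177, 0.0255 and 0.0310. With trend and robust settings the call of Eif2ak2 was lost (adjusted p = 0.0751), and the mean of the probe sets of Pnpt1 changed by -0.46. Rnaseh2c, a subunit of the ribonuclease that removes RNA from DNA, rose by 0.37 (SE 0.07, limma adjusted p = 0.0293). Its probe set that does not end in _s_at or _x_at gave 0.17 and did not pass (limma adjusted p = 0.188).

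**Figure D4:**
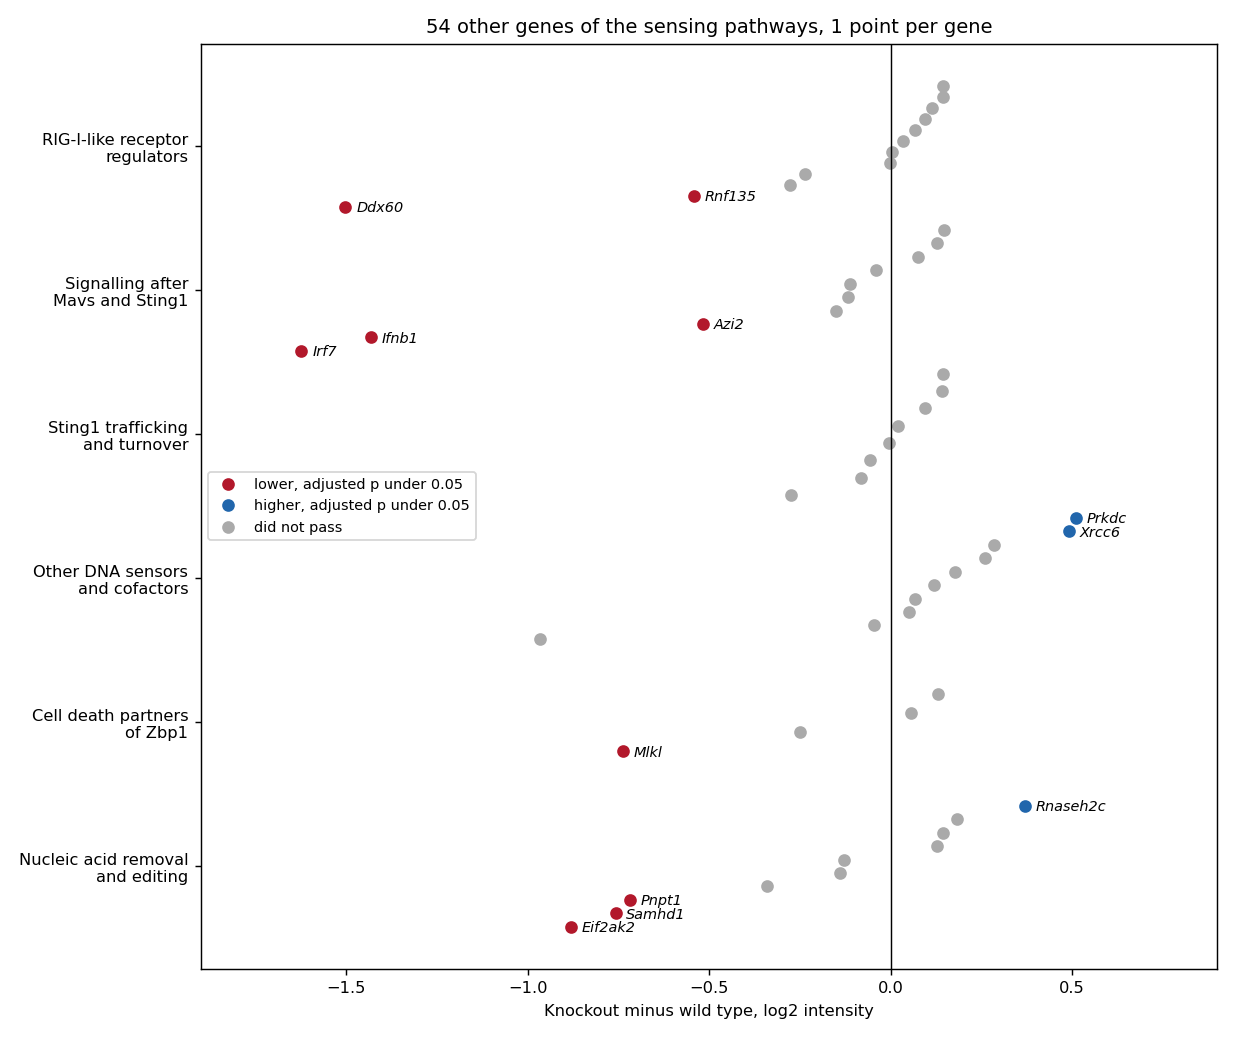
Each point is 1 of 54 other sensing pathway genes by its brightest probe set, placed by its change (knockout minus wild type, log2 intensity) within its role group; colour marks the direction of those with a limma adjusted p under 0.05. The 9 coloured falls lie between -1.62 and -0.52, the 3 rises between 0.37 and 0.51, and most other points within a narrow band around 0, apart from the DNA sensor gene Ifi204 at -0.97, which did not pass.

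The calls of the sensing genes depended on single arrays more than their directions did. Such dependence was not particular to them: over all 45037 probe sets, leaving out 1 array changed the number called lower from 764 to between 16 and 742. Ddx58, Ifih1 and Cgas each lost the call in 3 of the 6 fits without 1 array, and Dhx58, Zbp1 and the shared Atrip/Trex1 probe set in 5 of 6, with limma adjusted p of at most 0.129. Each of these 6 was lower in knockout in all 6 fits. Without knockout replicate 3, the knockout array nearest to wild type, all 6 passed, with limma adjusted p of 0.00969 to 0.0148. The change of Ddx58 ranged from -1.29 to -0.83 over these fits, and that of Cgas from -0.63 to -0.47.

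**Figure D5:**
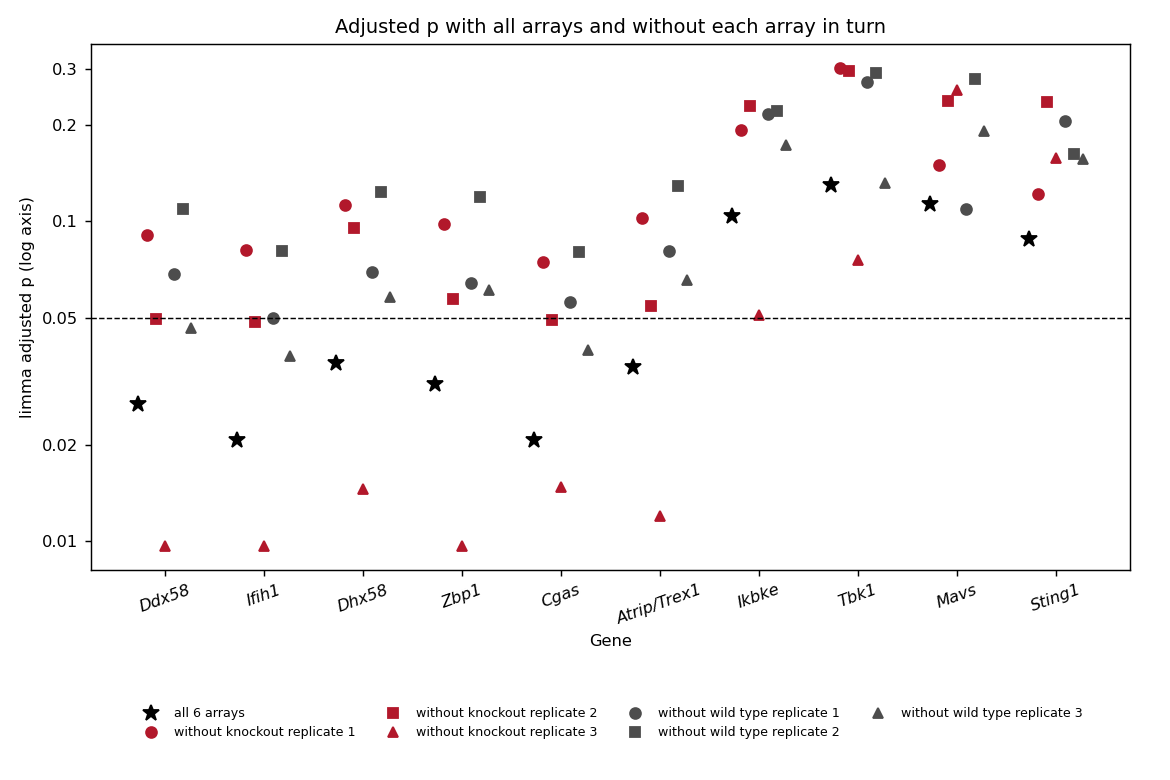
Points give limma's adjusted p (log axis) for each gene with all 6 arrays (star) and without each array in turn; the dashed line marks 0.05. For Ddx58, Ifih1, Dhx58, Zbp1, Cgas and Atrip/Trex1, the points that omit knockout replicate 1 or wild-type replicate 2 lie above the line and those without knockout replicate 3 below it, while Ikbke, Tbk1, Mavs and Sting1 stay above it in every fit.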

How the data were processed

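The values are the authors' deposited log2 intensities for 45101 probe sets, whose scale was read from their range. Per the submitters' processing notes, GCRMA 2.30.0, RMA, affy 1.36.1 and limma 3.14.4 were used, without stated roles. Which method summarised the probes is therefore unknown here, and changes of dim probe sets depend on it. Array medians lay between 5.60 and 5.64. Depth has no meaning for arrays; their number, 3 per genotype, limits precision.

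The 64 control probe sets were left out. The platform annotation named the genes, with symbols updated by gene identifier from RefSeq (GRCm38.p6); 34945 probe sets had 1 gene, 932 several and 9160 were unnamed here. The probe set with the highest mean stood for a gene (18193 genes). The genotypes were compared with limma 3.58.1 (lmFit, eBayes; R 4.3.3), with p-values adjusted by Benjamini-Hochberg across the 45037 probe sets; the test was tried on simulated data first. SEs and confidence intervals are limma's moderated ones. An exact test of 3 against 3 arrays cannot give a two-sided p under 0.1. The labels do not state that replicate numbers pair samples, so the fit has no block. Samples with the same replicate number did not deviate together (r of -0.13 to -0.04 across probe sets). For samples with other numbers r was -0.05 to 0.11.

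The members, the 59 other pathway genes (54 measured; Traf3, Optn, Enpp1, Hmgb1 and Ripk1 were not analysed here), the marker lists and the tests were chosen with earlier results of these data known. Named genes were the 10 members, Fabp5 and all other pathway genes past the threshold. The gene with the smallest p in a group without one, and the 3 nearest profiles of Ddx58, Ifih1 and Zbp1, were named too. Csf1r, Mertk, Fcgr1, Bst2, Tcf4, Ifi204, Atrip and Igf2bp1 were added after the values were seen. Alternatives were other normalizations, filters, variance settings, a replicate block, other probe set choices and leaving out each array. Figures were drawn with matplotlib 3.10.9.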

Additional observations from a re-analysis of the deposited data

How the results depend on the processing

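The number of sensing genes that fell (5 of 9), their probe sets that fell (7 of 18), and the numbers of other pathway genes that fell (9 of 54) and rose (3 of 54) were recomputed under 15 alternatives, the second under 14, since averaging each gene's probe sets leaves none to count. With a floor at the 20th percentile (4.07) all 4 numbers were 0; this floor made 7409 probe sets constant and reduced limma's prior degrees of freedom to 0.47, against 5.04. With the replicate block they were 0, 0, 1 and 0, although the replicate numbers showed no pairing, so this is not read as a weaker effect. Over all 45037 probe sets, the floor left 19 called lower and 52 higher, and the block 43 and 49. The main fit called 764 and 927. Trend and robust settings gave 3 sensing genes, Cgas and the kinases Tbk1 and Ikbke, and lost Ddx58, Ifih1, Dhx58 and Zbp1. The 9 other pathway genes that fell under these settings did not include Ddx60, Irf7 and Eif2ak2. Which property of the spread moved the calls was not tested. Leaving out 1 array gave 0 to 5 sensing genes, 0 to 8 of their probe sets, 0 to 10 other genes that fell and 0 to 3 that rose. Quantile normalization, median centring, above-median probe sets only, array weights, leaving out _s_at and _x_at probe sets and averaging each gene's probe sets left the numbers recomputed within 1.5 times. None of the sensing genes, the other pathway genes past the threshold and Trim56 changed direction under the alternatives run for it (14 for the shared Atrip/Trex1 probe set); those named for other reasons were not recomputed. The 3 receptor minus adaptor differences kept their direction too, under alternatives that were added after seeing the data.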
